A study of Mus musculus with 6 samples.

Results

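The integrin and laminin chains of the mouse were examined in T cells after co-culture with ovarian cancer cells. The members were every protein-coding gene of the expression table whose symbol is that of an integrin alpha chain, an integrin beta chain, or a laminin alpha, beta or gamma chain. This gave 37 of the 54532 genes, of which 18 were integrin alpha, 8 integrin beta and 11 laminin chains. From textbook knowledge of where each chain is used, the 26 integrins were divided into 8 leukocyte chains (Itga4, Itgad, Itgae, Itgal, Itgam, Itgax, Itgb2 and Itgb7), 8 epithelial chains (Itga2, Itga3, Itga6, Itgav, Itgb4, Itgb5, Itgb6 and Itgb8) and 10 other chains.

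RNA sequencing libraries had been made from poly-A RNA of T cells isolated from the spleens of C57BL/6 mice, kept in medium with IL-2 and activated through CD3 and CD28 on magnetic beads. The T cells were then kept together with ID8, an ovarian cancer line of the mouse, which had been pretreated either with 40 µM cisplatin, a platinum drug that crosslinks DNA (3 libraries, called cisplatin), or with PBS (3 libraries, called control and titled WT by the submitters). The sources used here do not give how the T cells were parted from the ID8 cells afterwards or whether mice were pooled. The study calls its T-cell samples independent, with 3 per group, and says that cellular experiments were repeated in triplicate. Whether an independent sample was a separate culture is not stated, so p-values measure the spread between these libraries alone. The comparison asks what pretreatment of the tumour cells changed in the RNA collected as T cells.

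Integrins are receptors made of an alpha and a beta chain, both of which cross the cell membrane, and the pairing decides what the receptor binds. Leukocyte integrins let T cells hold on to other cells and to vessel walls, whereas most epithelial integrins anchor a cell to the matrix beneath it. Laminins are cross-shaped matrix proteins built from an alpha, a beta and a gamma chain, and they form the sheet of the basement membrane on which epithelial cells sit and to which several integrins bind.

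Promoter sequences show what lies upstream of members that moved in opposite directions. Of the 37 members, 23 had a promoter in the RefSeq table used here (build GRCm38.p6), and for each the 250 bases before the transcript start were read. Gene positions given in the text are on the same build, GRCm38. The 5 printed here belong to Itga4 (chr2:79255176-79255425, the plus strand) and Itgb7 (chr15:102231936-102232185, the minus strand), whose transcripts were higher in the cisplatin libraries and whose proteins pair, and to Itgb5 (chr16:33829415-33829664, the plus strand), Lama5 (chr2:180225860-180226109, the minus strand) and Lamb1 (chr12:31265043-31265292, the plus strand), whose transcripts were lower. Each is written 5′ to 3′ on the strand of its gene, and capitals mark matches, on either strand, to GAGGAA (the core bound by the leukocyte factor PU.1), TGTGGT (the core bound by RUNX factors), GGGCGG (the GC box bound by SP1) or TGANTCA (bound by AP-1).
Itga4: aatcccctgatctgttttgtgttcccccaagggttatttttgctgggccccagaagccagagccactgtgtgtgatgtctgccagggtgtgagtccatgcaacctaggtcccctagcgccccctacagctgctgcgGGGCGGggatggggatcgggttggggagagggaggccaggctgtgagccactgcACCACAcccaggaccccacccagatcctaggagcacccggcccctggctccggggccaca
Itgb7: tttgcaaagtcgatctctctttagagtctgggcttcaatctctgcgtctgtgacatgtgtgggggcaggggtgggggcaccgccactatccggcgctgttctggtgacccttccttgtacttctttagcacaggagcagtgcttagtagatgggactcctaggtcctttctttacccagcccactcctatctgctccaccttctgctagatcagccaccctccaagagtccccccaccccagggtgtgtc
Itgb5: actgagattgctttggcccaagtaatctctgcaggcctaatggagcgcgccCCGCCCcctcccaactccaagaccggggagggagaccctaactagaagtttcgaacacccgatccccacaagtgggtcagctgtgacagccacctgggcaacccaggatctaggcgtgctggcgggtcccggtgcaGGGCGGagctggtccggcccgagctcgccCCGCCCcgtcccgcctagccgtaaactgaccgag
Lama5: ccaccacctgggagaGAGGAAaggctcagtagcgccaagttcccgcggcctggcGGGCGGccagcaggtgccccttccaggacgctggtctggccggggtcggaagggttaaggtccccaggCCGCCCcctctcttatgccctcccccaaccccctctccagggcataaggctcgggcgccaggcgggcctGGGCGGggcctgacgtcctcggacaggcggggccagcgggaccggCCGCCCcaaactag
Lamb1: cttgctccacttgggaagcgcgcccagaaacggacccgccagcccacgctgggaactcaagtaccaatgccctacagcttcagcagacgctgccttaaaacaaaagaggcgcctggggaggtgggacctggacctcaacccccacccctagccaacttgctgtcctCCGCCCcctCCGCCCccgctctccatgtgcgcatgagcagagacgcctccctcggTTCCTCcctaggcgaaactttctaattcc

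The window of Itgb7 held none of the 4 motifs, that of Itga4 held a RUNX core and a GC box, and those of Itgb5, Lama5 and Lamb1 held GC boxes, with GAGGAA as well in those of Lama5 and Lamb1. Over the members, GAGGAA was in 11 of the 23 windows and in 23.1% of all 27025 promoters in the table, and GGGCGG was in 8 of the 23 and in 32.9% of all. TGTGGT was in 1 of the 23 (14.2% of all), as was TGANTCA (6.87% of all), a motif that reads the same on both strands. Of the 9 windows of members that fell, 6 held GAGGAA and 6 held GGGCGG, and of the 5 windows of members that rose, 2 held GAGGAA and 2 held GGGCGG. No match in the 5 windows printed shared a base with another. A match describes the letters only and not binding.

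Expression was deposited as FPKM, that is, fragments scaled by the length of the gene and by the size of the library, which allows levels to be compared between genes. The reads on genes behind these values ranged from 30606569 to 32169496 per library. All 23 T-cell identity markers were detected and all 23 rose, with summed FPKM of 2916 to 3002 in the cisplatin libraries against 1824 to 1955 in the control libraries. Other cell types were also represented. Markers of ID8 cells (22 epithelial and mesothelial genes) summed to 216 to 222 FPKM against 1518 to 1588. Of these, 2 (Krt20 and Krt23) were at 0 in every cisplatin library. They were near 0 in the control libraries too, at most 0.0346 FPKM for Krt20 and 0.0426 FPKM for Krt23. B-cell markers (10 genes) summed to 3607 to 3684 against 1676 to 1760 FPKM, most of it from Ighm (3188 to 3274 against 1393 to 1468), and the other 9 summed to 410.0 to 439 against 274 to 291 FPKM. In such bulk libraries, fewer cells of a type and less RNA per cell cannot be told apart.

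Differences were tested with limma on log2(FPKM + 0.1), a scale that understates the change of low genes, over the 15874 genes whose mean reached 0.5 FPKM. A gene is said to have risen or fallen where its adjusted p was under 0.05, and is said to be called where its change was also at least 2-fold. Of the 37 members, 26 were tested, 13 were called lower and 0 higher. The largest rise of a tested member was 0.89 on the log2 scale, so that 0 reached a 2-fold rise at an unadjusted p under 0.05 as well. On the rebuilt reads limma's voom called 2 members higher, Itgam and Itga9. Of these, Itga9 passed the filter on reads only through the cisplatin libraries, so its call adds no support. Among all genes tested, 12.8% were called lower and 4.11% higher. The limma adjusted p alone was passed by 15 members that fell and 8 that rose, against 29.0% and 27.5% of all genes tested, and 3 members did not pass. The 8 that rose were 7 leukocyte chains and Lamb3, and of these Itgal, Itgax, Itgb2 and Lamb3 turned to the other sign when the libraries were centred on the T-cell markers. Over the tested members the median log2 fold change was -0.93, beside 0.03 for all genes tested. Over all 37 members, with no test, 19 had every cisplatin library below every control library, 9 had every cisplatin library above, and 9 overlapped, against 19.8% below and 17.7% above among the 33456 genes with any read. The median of all genes tested moved to 0.16 under quantile normalization and to -0.57 with the T-cell centring.

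**Figure D1:**
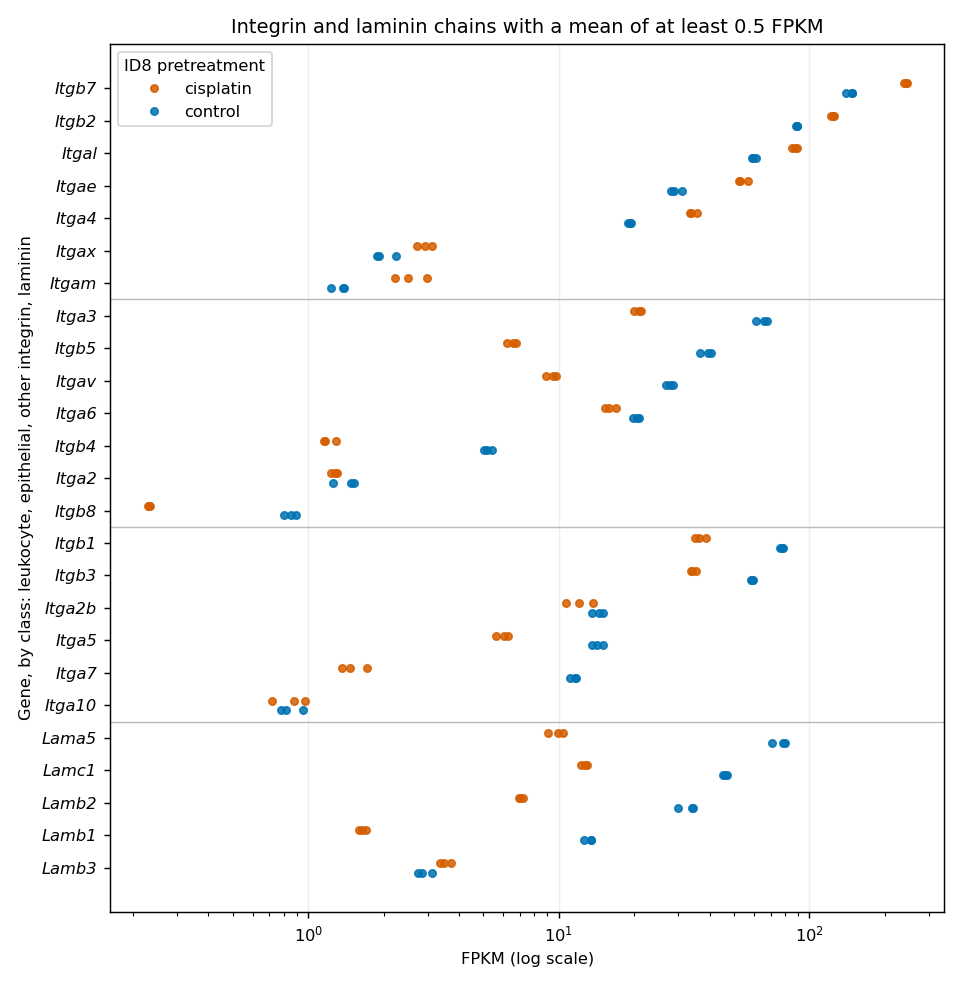
FPKM of 25 tested chains in each library (log scale), with 3 cisplatin libraries in orange and 3 control libraries in blue, grouped into leukocyte, epithelial, other integrin and laminin chains. On this deposited scale all 7 leukocyte chains lie to the right in the cisplatin libraries (Itgal, Itgax and Itgb2 did not relative to the T-cell markers), whereas 6 of 7 epithelial chains and 4 of the 5 laminin chains shown lie to the left with no overlap, and Itga2, Itga2b and Itga10 overlap.

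Leukocyte integrin chains had the largest summed level of the classes, 543 to 549 FPKM in the cisplatin libraries and 340 to 352 FPKM in the control libraries. All 7 that could be tested rose, beside 27.5% of all genes tested, with log2 fold changes between 0.47 and 0.89 and a median of 0.74. Relative to the T-cell markers, however, 3 rose, Itgb2 fell and the median was 0.14. None of the 7 reached a change of 2-fold. Itgb7, the beta chain of the gut-homing receptor α4β7 (ENSMUSG00000001281, chr15:102215995-102231944), had 244, 242 and 239.5 FPKM in the cisplatin libraries and 148, 148 and 140.4 FPKM in the control libraries. Every cisplatin library was above every control library, and the change was 1.67-fold (242 ± 2.31 against 145 ± 4.18, SD, n = 3; log2 fold change 0.74, SE 0.03, limma adjusted p = 3.2e-06). Its partner Itga4 (ENSMUSG00000027009, chr2:79255426-79333123), which also pairs with Itgb1 to bind VCAM1 on inflamed vessels, had 33.8, 33.5 and 35.7 FPKM in the cisplatin libraries and 19.5, 18.97 and 19.2 FPKM in the control libraries. These did not overlap either, and Itga4 was 1.79-fold higher (34.3 ± 1.21 against 19.2 ± 0.245; log2 fold change 0.83, SE 0.04, adjusted p = 3.9e-06).

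Itgae, known as CD103, is the alpha chain that joins Itgb7 in T cells resident in epithelia, where it binds E-cadherin. It had 52.7, 52.5 and 56.9 FPKM in the cisplatin libraries and 30.97, 28.1 and 28.9 FPKM in the control libraries, a rise of 1.84-fold without overlap (log2 fold change 0.88, SE 0.05, limma adjusted p = 1.3e-05).

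Itgb2, the beta chain shared by the integrins found on leukocytes alone, had 122, 125 and 124 FPKM in the cisplatin libraries and 89.3, 89.4 and 88.5 FPKM in the control libraries. Its alpha partner Itgal, with which it forms the receptor that binds ICAM1 at the contact of a T cell with its target, had 84.9, 89.6 and 87.3 FPKM in the cisplatin libraries and 60.96, 59.8 and 59.3 FPKM in the control libraries. Both were separate between the groups, at 1.39-fold for Itgb2 (log2 fold change 0.47, SE 0.03, limma adjusted p = 8.7e-06) and 1.45-fold for Itgal (0.54, SE 0.03, adjusted p = 1.3e-05), but relative to the T-cell markers both turned to the other sign, at -0.12 for Itgb2 (adjusted p = 0.0081) and -0.05 for Itgal (adjusted p = 0.19).

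The alpha chains used mainly by myeloid cells were low in FPKM. The level of Itgam is uncertain, since 68.7% of its exonic bases are shared with another gene, as given below. Itgam, known as CD11b, had 2.21, 2.97 and 2.51 FPKM in the cisplatin libraries and 1.37, 1.23 and 1.395 FPKM in the control libraries, and Itgax, known as CD11c and typical of dendritic cells, had 3.11, 2.73 and 2.94 FPKM in the cisplatin libraries and 1.89, 2.24 and 1.92 FPKM in the control libraries. Neither overlapped between the groups. Itgam was 1.93-fold higher (log2 fold change 0.89, SE 0.14, limma adjusted p = 0.0016), and Itgax 1.45-fold (0.52, SE 0.11, adjusted p = 0.0055), which turned to -0.08 relative to the T-cell markers (adjusted p = 0.57). Itgam was past 2-fold under quantile normalization (log2 fold change 1.07, adjusted p = 6.1e-04) and did not pass the test relative to the T-cell markers (0.295, adjusted p = 0.09).

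Marker lists of leukocytes moved with these chains. The median log2 fold change was 0.61 over the 23 T-cell markers and 0.60 over the 10 B-cell markers, of which all 10 rose. Of the 16 myeloid markers 13 were tested, 10 rose and 2 fell, and the median was 1.12. Among all genes tested 27.5% rose and 29.0% fell. C1qa, Fcgr1 and Adgre1 passed the filter on low values only through the cisplatin libraries, so their rises add no support to this count and median. The myeloid list summed to 359 to 398 FPKM in the cisplatin libraries against 233 to 250 in the control libraries. Within it, Ly6g was at 0 in every cisplatin library and at most 0.0692 FPKM in a control library. The 8 natural killer cell markers summed to 20.7 to 23.2 against 15.9 to 17.1 FPKM, and 2 of the 6 tested rose. The part of these cells in the rise of the leukocyte chains was not tested.

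Epithelial integrin chains fell. Of the 8 chains, 7 were tested, 6 fell and 5 were called lower, with a median log2 fold change of -1.55. Among all genes tested 29.0% fell and 12.8% were called lower. The 5 include Itgb8, whose limit is given below. Itga3, which pairs with Itgb1 to bind laminin (ENSMUSG00000001507, chr11:95044474-95076801), had 20.9, 19.98 and 21.3 FPKM in the cisplatin libraries and 65.7, 67.6 and 61.1 FPKM in the control libraries. The groups were far apart, and Itga3 was 3.12-fold lower (20.8 ± 0.697 against 64.8 ± 3.37, SD, n = 3; log2 fold change -1.64, SE 0.05, limma adjusted p = 6.4e-07). Itgb5 (ENSMUSG00000022817, chr16:33829665-33949338), which with Itgav binds vitronectin, had 6.76, 6.57 and 6.2 FPKM in the cisplatin libraries and 40.4, 39.5 and 36.7 FPKM in the control libraries. It was 5.97-fold lower, the steepest fall of the epithelial chains (log2 fold change -2.56, SE 0.05, adjusted p = 1.7e-07). Itgav itself, the alpha chain shared by the receptors of vitronectin, fibronectin and latent TGF-beta, had 9.44, 8.93 and 9.77 FPKM in the cisplatin libraries and 28.5, 26.8 and 27.7 FPKM in the control libraries and was 2.95-fold lower (log2 fold change -1.55, SE 0.05, adjusted p = 7.7e-07).

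Itgb4, whose long inner tail ties laminin to keratin filaments in hemidesmosomes, had 1.29, 1.17 and 1.16 FPKM in the cisplatin libraries and 5.18, 5.42 and 5.03 FPKM in the control libraries. Its libraries did not overlap and it was 4.33-fold lower (log2 fold change -2.03, SE 0.09, limma adjusted p = 3.5e-06). Itga6, its only alpha partner, behaved differently in size, with 15.9, 15.3 and 16.96 FPKM in the cisplatin libraries and 20.6, 19.7 and 20.9 FPKM in the control libraries. It fell by 0.35 on the log2 scale without being called (SE 0.05, adjusted p = 0.001). Itga6 also pairs with Itgb1 and is carried by several kinds of leukocyte as well as by epithelia.

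Itgb8, a partner of Itgav that binds latent TGF-beta, was low and lower still in the cisplatin libraries, with 0.232, 0.235 and 0.229 FPKM in the cisplatin libraries and 0.894, 0.856 and 0.804 FPKM in the control libraries. The fall was called (log2 fold change -1.52, SE 0.28, limma adjusted p = 0.0035), although it no longer reached 2-fold with a pseudocount of 1. Itgb8 passed the filter on low values only through the control libraries, so its call adds no support to the counts of chains called lower, which are 4 epithelial chains and 12 members without it. Itga2, a collagen receptor chain of epithelia and platelets, had 1.28, 1.24 and 1.298 FPKM in the cisplatin libraries and 1.26, 1.52 and 1.49 FPKM in the control libraries. Its groups overlapped and it did not pass the test (log2 fold change -0.15, SE 0.14, adjusted p = 0.4). Its sign turned under quantile normalization. Relative to the T-cell markers it passed the test (-0.74, adjusted p = 0.0022), and there all 7 tested epithelial chains fell. The median of all genes tested was -0.57 with that centring.

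The ID8 markers moved with the epithelial chains: 14 of the 22 were tested, 12 were called lower, and their median log2 fold change was -2.32. Set against that median, Itgb5 was at -0.24, Itgb4 at 0.29, Itga3 at 0.69, Itgav at 0.77 and Itga6 at 1.98 on the log2 scale. The part of the ID8 cells in these falls was not tested.

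**Figure D2:**
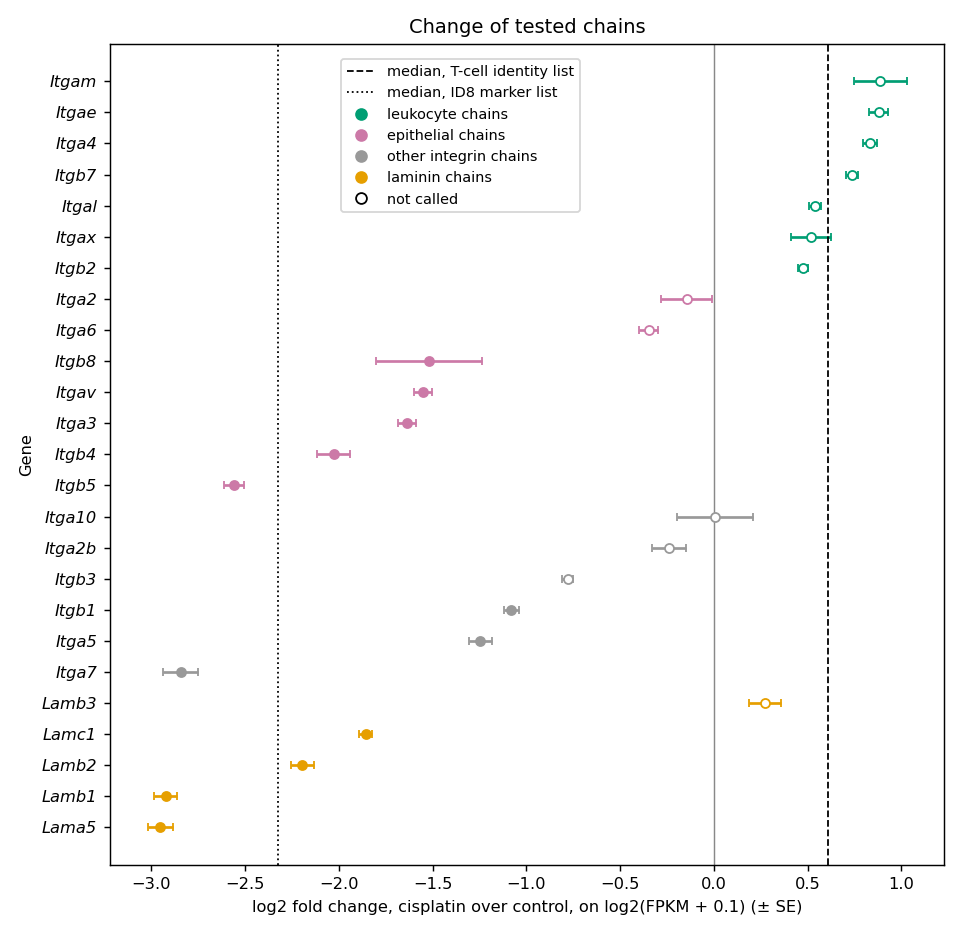
Log2 fold change (cisplatin over control, on log2(FPKM + 0.1)) of 25 tested chains with bars for the SE, coloured by class, filled where called and open where not. Vertical lines mark 0 and the medians of the T-cell markers (0.61) and of the ID8 markers (-2.32), and the filled points reach from -1.08 for Itgb1 to -2.95 for Lama5.

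Among the other integrin chains the outcome was mixed. Of the 10, 6 were tested, 4 fell and 3 were called lower, beside 29.0% and 12.8% of all genes tested. Itgb1, the beta chain with the widest choice of alpha partners, which T cells and tumour cells both carry (ENSMUSG00000025809, chr8:128685654-128733200), had 36.3, 35.1 and 38.6 FPKM in the cisplatin libraries and 76.6, 78.8 and 77.5 FPKM in the control libraries. It was 2.12-fold lower without overlap (log2 fold change -1.08, SE 0.04, limma adjusted p = 2.0e-06), and it fell short of 2-fold when the FPKM were rescaled by the reads on genes and with voom on the rebuilt reads. Itga5, which with Itgb1 is the classical fibronectin receptor, had 6.25, 6.03 and 5.62 FPKM in the cisplatin libraries and 14.2, 15.1 and 13.6 FPKM in the control libraries and was 2.396-fold lower (log2 fold change -1.25, SE 0.06, adjusted p = 6.3e-06).

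Itga7 is a laminin receptor chain best known from muscle, where it pairs with Itgb1 (ENSMUSG00000025348, chr10:128933818-128958282). It had 1.47, 1.71 and 1.36 FPKM in the cisplatin libraries and 11.7, 11.1 and 11.6 FPKM in the control libraries. This was the largest fall of any integrin chain tested, 7.56-fold (log2 fold change -2.84, SE 0.09, limma adjusted p = 9.6e-07), and at -0.52 it lay below the median of the ID8 markers.

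Itgb3, the beta chain of the vitronectin receptor and of the platelet fibrinogen receptor, had 33.9, 35.3 and 33.8 FPKM in the cisplatin libraries and 58.9, 59.7 and 58.5 FPKM in the control libraries. It fell by 0.78 on the log2 scale without being called (SE 0.03, limma adjusted p = 2.2e-06). Itga2b, its partner in platelets and megakaryocytes, had 12.1, 13.7 and 10.7 FPKM in the cisplatin libraries and 13.6, 14.4 and 14.96 FPKM in the control libraries. The highest cisplatin value lay above the lowest control value, and Itga2b did not pass the test (log2 fold change -0.24, SE 0.09, adjusted p = 0.064), but it passed as lower without cisplatin library 2 (-0.33, adjusted p = 0.014), with TPM (0.044), with the filter raised to 5 FPKM (0.046), among protein-coding genes alone (0.027) and relative to the T-cell markers (-0.83, adjusted p = 1.0e-04). Of the 10 platelet and megakaryocyte markers 8 were tested, 1 was called lower and the median was 0.05, with sums of 75.6 to 87.9 FPKM in the cisplatin libraries and 84.7 to 115 in the control libraries, and Gp1bb was at 0 in every library. The part of platelets in these values was not tested. Itga10, a collagen receptor chain of cartilage, had 0.971, 0.716 and 0.8805 FPKM in the cisplatin libraries and 0.816, 0.778 and 0.955 FPKM in the control libraries, with overlapping groups, and did not pass the test (log2 fold change 0.01, SE 0.20, limma adjusted p = 0.99). Relative to the T-cell markers it passed as lower (-0.59, adjusted p = 0.04).

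Added together on the deposited scale, the integrin chains gave nearly the same total in both groups, with 690.3, 695 and 698 FPKM in cisplatin libraries 1 to 3 and 690.4, 689.5 and 671 FPKM in control libraries 1 to 3. Relative to the T-cell markers the totals were not alike, at 570.1, 557 and 569 in the cisplatin libraries and 866, 843 and 811 in the control libraries, a mean ratio of 0.673 in place of 1.015. The make-up of the total differed as well. Leukocyte chains held 78.7%, 78.9% and 78.7% of it in the cisplatin libraries and 50.9%, 50.4% and 50.6% in the control libraries. Epithelial chains held 8.10%, 7.69% and 8.17% against 23.6%, 23.4% and 22.9%. The ratio of the epithelial to the leukocyte sum was 0.103, 0.0974 and 0.104 in the cisplatin libraries and 0.463, 0.465 and 0.453 in the control libraries, so that every control library lay above every cisplatin library. No scaling of a whole library changes these shares and this ratio.

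**Figure D3:**
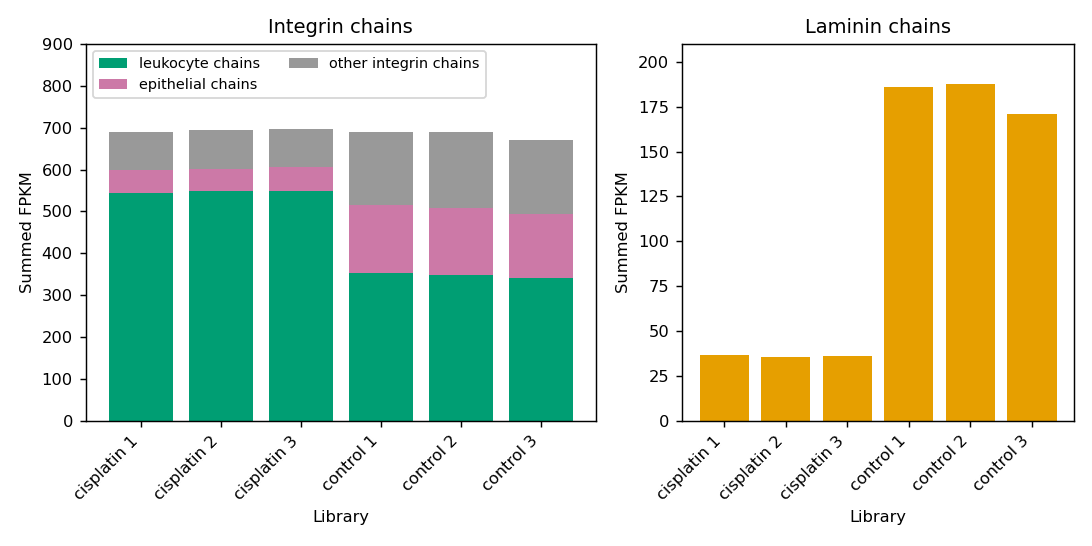
Summed FPKM of the integrin chains (left, stacked by leukocyte, epithelial and other chains) and of the laminin chains (right) in each of the 6 libraries. On this deposited scale the integrin bars are of similar height, 671 to 698 FPKM, with the leukocyte part larger in the cisplatin libraries, whereas the laminin bars fall from 171 to 188 FPKM in the control libraries to 35.2 to 36.6 FPKM in the cisplatin libraries.

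Among the beta chains alone, Itgb7 made up 54.9%, 54.3% and 54.0% of the summed FPKM in the cisplatin libraries and 35.2%, 35.05% and 34.45% in the control libraries. Itgb1 made up 8.16%, 7.87% and 8.71% against 18.3%, 18.7% and 19.0%. The commonest beta chain was thus the same in both groups, and the share of Itgb1 was lower in every cisplatin library.

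Laminin chains had the lowest median change of the classes. Of the 11 chains, 6 were tested and 5 of these were called lower, beside 12.8% of all genes tested. The median log2 fold change of the 6 was -2.56. The summed FPKM of the 11 was 36.6, 35.2 and 35.9 in the cisplatin libraries and 186, 188 and 171 in the control libraries. This difference was far outside the spread of either group.

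Lama5, the alpha chain of most adult epithelial and vascular basement membranes (ENSMUSG00000015647, chr2:180176373-180225859), was the most abundant laminin in the control libraries. It had 10.4, 9.05 and 9.89 FPKM in the cisplatin libraries and 78.8, 79.6 and 70.7 FPKM in the control libraries. It was 7.81-fold lower (9.77 ± 0.669 against 76.4 ± 4.9, SD, n = 3; log2 fold change -2.95, SE 0.07, limma adjusted p = 2.6e-07), and its share of the laminin sum went from 42.4%, 42.4% and 41.4% in the control libraries to 28.3%, 25.7% and 27.5% in the cisplatin libraries.

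Lamb1 and Lamb2 are the alternative beta chains that join Lama5 and Lamc1. Lamb1 (ENSMUSG00000002900, chr12:31265234-31329644) had 1.701, 1.597 and 1.64 FPKM in the cisplatin libraries and 13.4, 13.4 and 12.6 FPKM in the control libraries, and Lamb2 (ENSMUSG00000052911, chr9:108479736-108490530) had 6.95, 7.204 and 7.02 FPKM in the cisplatin libraries and 33.99, 34.4 and 29.9 FPKM in the control libraries. Neither overlapped between the groups. Lamb1 was 7.99-fold lower (log2 fold change -2.92, SE 0.06, limma adjusted p = 1.7e-07) and Lamb2 4.64-fold lower (-2.20, SE 0.06, adjusted p = 5.2e-07).

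Lamc1, the gamma chain of nearly all basement membranes (ENSMUSG00000026478, chr1:153218922-153332786), had 12.9, 12.7 and 12.3 FPKM in the cisplatin libraries and 46.2, 46.8 and 45.3 FPKM in the control libraries and was 3.64-fold lower (log2 fold change -1.86, SE 0.03, limma adjusted p = 1.3e-07).

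Lamb3 was the exception among the laminins. A beta chain of the laminin that anchors skin and other epithelia, it had 3.49, 3.35 and 3.72 FPKM in the cisplatin libraries and 3.12, 2.84 and 2.75 FPKM in the control libraries. The groups did not overlap and Lamb3 rose by 0.27 on the log2 scale (SE 0.09, limma adjusted p = 0.032), but it turned to -0.32 relative to the T-cell markers (adjusted p = 0.019), and its adjusted p was between 0.070 and 0.10 when cisplatin library 1, cisplatin library 3, control library 2 or control library 3 was left out. The gene model behind the value (ENSMUSG00000026639, chr1:193207699-193343878) has 6612 exonic bases. Its start lies 94295 bases upstream of the RefSeq start, and 2269 of its exonic bases (34.3%) lie before that start. On the same stretch, and without sharing an exonic base with Lamb3, lie Hsd11b1 on the opposite strand (3.93 against 2.64 FPKM) and 4930570N18Rik (6.28 against 3.66 FPKM) and Gm37691 (8.73 against 5.99 FPKM) on the same strand. Which exons of the model gave the reads was not tested.

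Relative to the ID8 marker median of -2.32, the tested laminins lay on both sides: Lama5 was at -0.63 and Lamb1 at -0.60, whereas Lamb2 was at 0.13, Lamc1 at 0.47 and Lamb3 at 2.59 on the log2 scale. Fibroblasts and endothelial cells also make laminins. Of the 8 fibroblast markers 2 were tested and both fell (sums of 9.54 to 9.65 against 41.5 to 42.8 FPKM). Most of this sum was Dcn (means of 7.51 against 39.2 FPKM). The 6 not tested were near the floor, the highest being Lum with means of 0.334 against 0.212 FPKM. Of these, Col3a1 was at 0 in every library. Of the 8 endothelial markers 4 were tested, 3 fell and 1 rose (24.7 to 25.1 against 27.9 to 28.3 FPKM). The 1 that rose, Pecam1, gave much of this sum (means of 20.6 against 13.4 FPKM). The 4 not tested were near the floor, the highest being Kdr with means of 0.263 against 0.160 FPKM. Among all genes tested 29.0% fell and 27.5% rose. The part of fibroblasts and endothelial cells in the laminin result was not tested.

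Ratios between chains within a library do not change when a whole library is rescaled. For 15 pairs of chains, chosen because they form a receptor or a laminin or compete for a partner, the ratio of FPKM was taken in each library. The groups were separate for 14 pairs, with 9 ratios higher and 5 lower in the cisplatin libraries. How many ratios of other genes were separate was not computed, so this count cannot be read as particular to these chains. Of single genes with any read, 19.8% were separate and lower and 17.7% separate and higher. With 3 libraries against 3, the two-sided exact permutation test cannot give a p under 0.10, which is what all 14 gave (0.107 after Benjamini-Hochberg adjustment over the 15 pairs).

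The same alpha chain could shift far against a partner and only a little against another. Itga4 over Itgb1 was 0.931, 0.954 and 0.924 in the cisplatin libraries and 0.254, 0.241 and 0.248 in the control libraries (1.92 on the log2 scale, SE 0.03), whereas Itga4 over Itgb7 moved little, from 0.132, 0.128 and 0.137 in the control libraries to 0.139, 0.138 and 0.149 in the cisplatin libraries (0.10, SE 0.04). Itga6 over Itgb4 was 12.4, 13.1 and 14.7 against 3.98, 3.64 and 4.17 (1.77, SE 0.09). The order of Itga6 and Itgb4 was the same in both groups, with Itga6 in excess in all 6 libraries.

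The αv receptors shifted in opposite senses with their beta chain. Itgav over Itgb5 was 1.397, 1.36 and 1.58 in the cisplatin libraries and 0.706, 0.677 and 0.755 in the control libraries (1.02 on the log2 scale, SE 0.08). Itgav over Itgb3 was 0.279, 0.253 and 0.289 against 0.484, 0.448 and 0.474 (-0.78, SE 0.07). In the cisplatin libraries there was more Itgav than Itgb5 transcript and in the control libraries less, while Itgb3 exceeded Itgav in all 6.

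Within the basement membrane laminins, Lama5 over Lamc1 was 0.802, 0.711 and 0.802 in the cisplatin libraries and 1.71, 1.699 and 1.56 in the control libraries (-1.10 on the log2 scale, SE 0.07). Lamb1 over Lamc1 was 0.13 ± 0.00397 against 0.285 ± 0.00616 (SD, n = 3), and Lamb2 over Lamc1 0.557 ± 0.0179 against 0.709 ± 0.0436. The 3 ratios to Lamc1 were all lower in the cisplatin libraries, with the smallest shift for Lamb2. Itgal over Itgb2 was 0.705 ± 0.01 against 0.674 ± 0.00758, and Itgax over Itgb2 overlapped (0.0236 ± 0.00184 against 0.0226 ± 0.0021, exact permutation p = 0.5).

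**Figure D4:**
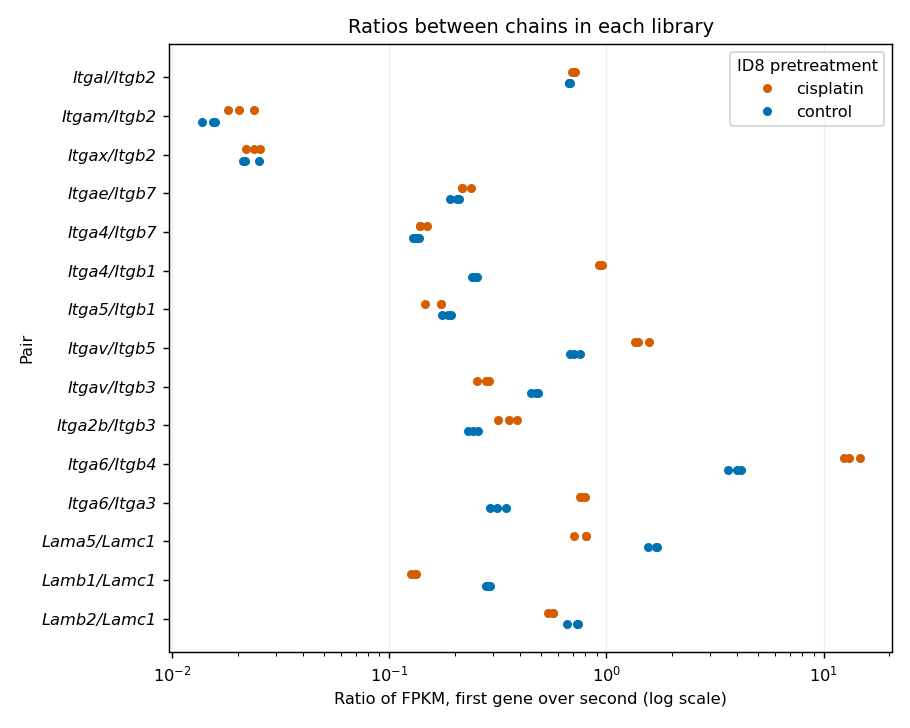
Ratio of FPKM of the first over the second chain of each of 15 pairs (log scale), with a point for each of the 3 cisplatin libraries (orange) and 3 control libraries (blue). The points of Itga4/Itgb1 and Itga6/Itgb4 are the farthest apart, and those of Itgax/Itgb2 overlap.

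The 11 members under the level needed for the test had 0 to 0.404 FPKM in any library and are given by their reads, without a test. Lama3, a laminin alpha chain of epithelia (ENSMUSG00000024421, chromosome 18), had 43, 56 and 49 reads in the cisplatin libraries and 99, 130 and 88 reads in the control libraries. Itga9, a chain that pairs with Itgb1 and binds tenascin and osteopontin, had 40, 32 and 29 reads in the cisplatin libraries and 5, 10 and 11 reads in the control libraries. Itgb6, the epithelial chain that with Itgav activates TGF-beta, had 15, 7 and 7 reads in the cisplatin libraries and 17, 34 and 24 reads in the control libraries. Itga9 was separate and higher in the cisplatin libraries (101 against 26 reads summed, with exact Poisson intervals of 82.3 to 123 and 17.0 to 38.1 for counting error alone), and Lama3 (148 against 317) and Itgb6 (29 against 75) were separate and lower.

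Itga11, a collagen receptor chain of fibroblasts, with 26, 21 and 34 reads in the cisplatin libraries and 46, 37 and 49 reads in the control libraries, and Lama4, the alpha chain of vessel and muscle laminins, with 28 against 66 reads summed, were separate and lower as well. The remaining 6 overlapped: Itga1 had 237 against 188 reads summed, Itga8 24 against 16, Itgad 18 against 9, Lama1 26 against 29, Lama2 18 against 35 and Lamc3 20 against 31. The 11 were left out by their level and not by their reads, and voom on the rebuilt reads, which takes in genes of low level, called Itga9 higher and Lama3 and Itgb6 lower. Itga9 passed voom's filter on reads only through the cisplatin libraries and Itgb6 only through the control libraries. The calls of Itga9 and Itgb6 therefore add no support.

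Some members share exons with another gene, and their counts are uncertain there. On the same strand, Itgam shares 3450 exonic bases (68.7% of its own) with Gm49368, Itga10 shares 1739 (33.5%) with Gm42957, and Itga1 shares 685 (3.68%) with Gm49395. On the opposite strand, Itga4 shares 1124 (8.04%) with Cerkl, Itgb4 537 (7.66%) with B230344G16Rik and Itgav 634 (5.90%) with Gm13684. The strand handling of the counts is not given in the sources used here. Of these partners Cerkl had the highest mean, 0.665 FPKM in the cisplatin and 0.414 FPKM in the control libraries. How reads on shared bases were assigned was not tested. A low partner therefore does not show that the count of a member is complete.

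Proteins that switch integrins on or tie them to actin moved both ways. Of 38 activators and adaptors 34 were tested, 17 fell (11 called) and 13 rose (1 called), with a median log2 fold change of -0.26. Among all genes tested 29.0% fell (12.8% called) and 27.5% rose (4.11% called). Relative to the T-cell markers 26 activators and adaptors fell (17 called) and 3 rose (0 called). With that centring 3840 of all 15874 genes tested were called lower and 137 higher, and their median was -0.57. The share of all genes that fell with it, called or not, was not computed. Kank2, which links talin at adhesions to microtubules, was at 6.65 ± 0.855 against 65.8 ± 3.12 FPKM (SD, n = 3; log2 fold change -3.29, limma adjusted p = 4.9e-07), and Fblim1, a filamin-binding adaptor, was at 3.33 ± 0.131 against 30.7 ± 1.59 (-3.17, adjusted p = 1.1e-07). Fermt2, the kindlin that activates integrins outside the blood, was at 1.28 ± 0.0946 against 11.6 ± 0.798 (-3.08, adjusted p = 5.3e-07), and Parva, a partner of the integrin-linked kinase, was at 2.06 ± 0.0926 against 12.3 ± 0.264 (-2.53, adjusted p = 2.8e-07). Fermt3, the kindlin of blood cells, was chosen after its values were seen. It rose from 86.9 ± 4.5 to 142 ± 1.84 FPKM without being called (0.71, adjusted p = 1.4e-05).

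Ligands of integrins went both ways. Of 22 genes 13 were tested, 6 fell (all 6 called) and 6 rose (1 called), and the median was 0.04. Among all genes tested 12.8% were called lower and 4.11% higher. Jam2, named here for its level alone, was called lower but passed the filter on low values only through the control libraries. Its call therefore adds no support to the count. Relative to the T-cell markers 8 ligands fell and 1 rose, with none called higher, beside a median of -0.57 for all genes tested. Under quantile normalization and after rescaling by the reads on genes 5 were called lower. F11r, a junction protein that binds Itgal with Itgb2, was at 11.4 ± 1.17 against 118 ± 0.823 FPKM (log2 fold change -3.37, limma adjusted p = 1.7e-07). Fn1, fibronectin, was at 4.98 ± 0.382 against 29.3 ± 0.752 (-2.53, adjusted p = 3.2e-07), Spp1, osteopontin, at 104 ± 7.91 against 293 ± 6.05 (-1.49, adjusted p = 1.8e-06), and Mfge8, a bridge between dying cells and αv integrins, at 13.4 ± 0.341 against 27.2 ± 1.29 (-1.01, adjusted p = 4.6e-06). Icam2, a ligand of the leukocyte integrins on endothelium, lymphocytes and platelets, rose from 7.29 ± 0.408 to 19.7 ± 0.536 FPKM (1.42, adjusted p = 1.8e-06).

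Basement membrane components and other partners of laminin fell with the laminins. Of 14 genes 11 were tested, 9 fell, all of them called, and 1 rose, with a median log2 fold change of -2.19. Relative to the T-cell markers all 11 fell, beside a median of -0.57 for all genes tested. Ntn4, a netrin that binds laminin gamma chains, was at 1.88 ± 0.102 against 28.9 ± 0.814 FPKM (log2 fold change -3.88, limma adjusted p = 8.3e-08). Bcam, a receptor for Lama5 of the immunoglobulin family, was at 5.84 ± 0.406 against 58.1 ± 2.93 (-3.29, adjusted p = 1.4e-07), Col4a1, a chain of basement membrane collagen, at 7.28 ± 0.2 against 43.6 ± 2.45 (-2.57, adjusted p = 1.5e-07), and Hspg2, perlecan, at 16.2 ± 0.353 against 94.6 ± 5.9 (-2.53, adjusted p = 1.5e-07). Among all genes tested 12.8% were called lower, as given above. The ID8 markers moved in the same direction, and their part in these falls was not tested.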

How the data were processed

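The labels describe 6 poly-A RNA sequencing libraries, 3 per group, and groups and replicate numbers were taken from them. The authors cleaned the reads, aligned them, counted them on known genes and deposited FPKM, and they ran DESeq2 on counts that were not used here. The submitters' processing notes name fastp, HISAT2 2.0.5, featureCounts 1.5.0-p3 and mm10, whereas the study's methods name LifeScope for alignment and counting, and strand handling is not given in the sources used here. All 37 members had the coordinates of GENCODE release M21 (GRCm38), as did 53585 of the 54495 genes found in both. The table held 0 further sample columns.

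Whole reads were rebuilt from FPKM, gene length and the smallest step of each library, and 100% of values lay within 0.1 of a whole read. They gave depth and the values of low members, and their intervals cover counting error only. Members were tested with limma 3.58.1 in R 4.3.3 (lmFit, eBayes with a trend) on log2(FPKM + 0.1) over genes whose mean reached 0.5 FPKM, with Benjamini-Hochberg adjustment over all 15874 genes tested. Since the unit is FPKM, no count test with a negative binomial model was run, and limma's voom on the rebuilt reads was an alternative. Calls needed an adjusted p under 0.05 and a log2 fold change of at least 1. In data simulated for this comparison, 198 of 200 changed genes (99%) and 6 unchanged genes were called among 15868 tested, and with voom 199 and 5 among 18506. All changes set in the simulation were past 2-fold and went both ways, and the spread between libraries was fixed. It therefore does not show how often changes near 2-fold are called.

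The members and lists were chosen with earlier results of these data known. A member and a ratio that needs it are not reported here by name. Any other member could be named, and of each list of activators, ligands or basement membrane partners the 4 largest falls and the 4 largest rises among those called whose higher group reached 5 FPKM. Alternatives were other pseudocounts, filters, scalings, thresholds and models, a replicate block and leaving out each library. Rescaling by the reads on genes, and every rescaling of the integrin sum and of the lists of activators, ligands and basement membrane partners, was added after the data were seen. Promoters came from RefSeq (GRCm38.p6). The other software was python 3.11.15 with scipy 1.17.1, pandas 2.3.3, numpy 2.4.6 and, for the plots, matplotlib 3.10.9.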

Additional observations from a re-analysis of the deposited data

How the results depend on the processing

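The 26 tested members were refitted under 19 alternatives. Of 487 values, 461 kept their direction and their side of the threshold, 8 lost and 6 gained an adjusted p under 0.05, and 12 changed sign. Between 11 and 15 members were called lower over the alternatives: 12 with a pseudocount of 1 (without Itgb8), 11 with a mean of at least 5 FPKM (Itgb4 and Itgb8 not tested, which left 3 epithelial chains), 14 with T-cell centring (Itgb3 added), 12 after rescaling by the reads on genes (without Itgb1), 14 with voom (Itgb6 and Lama3 added, Itgb1 lost) and 15 without a fold minimum. The count called higher was 1 under quantile normalization (Itgam), 2 with voom (Itgam and Itga9) and 8 without a fold minimum, of which 1, 1 and 7 were leukocyte chains. With voom, Itgb6 passed the filter on reads only through the control libraries and Itga9 only through the cisplatin libraries. Their calls add no support to these counts. With any library left out the counts were 13 to 13 lower and 0 to 0 higher, with 5 to 5 epithelial, 5 to 5 laminin and 0 to 0 leukocyte chains. T-cell centring reversed Itgal (-0.054), Itgax (-0.075), Itgb2 (-0.12), Lamb3 (-0.32) and Itga10 (-0.59), and quantile normalization reversed Itga2 (0.035). Itga10, at 0.005 with the deposited scaling, was also below 0 under median of ratios (-0.004) and TPM (-0.015) and between -0.082 and 0.11 when single libraries were left out (-0.02 without cisplatin replicate 3, -0.02 without control replicate 1 and -0.05 without control replicate 2). Lamb3 lost its adjusted p under 0.05 without a filter (0.061) and with TPM (0.075). For the lists, 17 activators and adaptors were called lower and 0 higher with T-cell centring, and 2 higher under quantile normalization and after rescaling by reads, ligands called higher were 0 with T-cell centring and 2 with TPM, and ligands called lower were 5 under quantile normalization (Mfge8 at -0.92) and after rescaling by reads (-0.90). All genes called lower and higher numbered 2034 and 653 with the settings used above, 3840 and 137 with T-cell centring, 1790 and 979 under quantile normalization, 1451 and 311 with a pseudocount of 1, 903 and 242 at a mean of at least 5 FPKM, and 2423 and 1127 with voom. The cause was not tested for any of these. Same-numbered libraries did not deviate together (r = 0.023, -0.063 and -0.021). With 3 libraries per group this cannot exclude a pairing, and the labels do not say whether there was one. With the replicate block 13 members were called lower and 0 higher and the limma adjusted p of Lamb3 was 0.072. The ratio of the integrin sums, cisplatin over control, went from 1.015 to 0.673 with T-cell centring, which was added after the data were seen.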
